A study of Mus musculus with 8 samples.

Results

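The genes described here encode 10 enzymes that build and sulfate chondroitin sulfate chains, and they were taken by name from the gene-level count table, where they are written in capitals as XYLT1, XYLT2, CSGALNACT1, CSGALNACT2, CHSY1, CHSY3, CHPF, CHST11, CHST3 and CHST15. All 10 were among the 13937 genes of the table, and all 10 passed the filter on low counts that left 13509 genes for testing. The RNA came from primary brain astrocytes of C57BL/6 mouse pups at postnatal day 1, either wild type (WT) or RGC-32 knock-out (RGC-32 KO), which lacks the Response Gene to Complement 32, gene symbol Rgcc. Cultures of both genotypes were starved of serum overnight and then left untreated or exposed for 24 h to TGF-β at 10 ng/ml. This gave 4 groups of 2 biological replicates each, a control and a TGF-β group for either genotype. The cells had grown for weeks in medium with serum after removal of the meninges and shaking off of less adherent cells, and every group shares that history.

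Chondroitin sulfate is a long sugar chain attached to core proteins such as the lectican family. Xylosyltransferases start the linker on the core protein, a GalNAc transferase commits the linker to chondroitin, chondroitin synthases extend the chain, and sulfotransferases then add sulfate at defined carbons of the sugars. In the central nervous system these chains are abundant in perineuronal nets and in glial scars, and the pattern of sulfation influences which proteins bind them.

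Each library held between 14920561 and 18956038 assigned reads. Levels are given as CPM, the reads of a gene scaled to a common library size by the TMM method, and differences as log2 fold changes from edgeR's quasi-likelihood test with Benjamini-Hochberg adjustment over all 13509 genes. A gene was counted as past the threshold when its adjusted p was under 0.05 and its log2 fold change reached 0.6 in either direction. The targeted gene Rgcc had 80 and 94 reads in untreated and 215 and 362 reads in stimulated WT cultures, against 61 and 28 reads and then 64 and 26 reads in the knock-out cultures. Its level was lower in RGC-32 KO than in WT after TGF-β by a log2 fold change of -2.54 (SE 0.48), which did not pass the threshold (adjusted p = 0.133), and the part of the gene that was deleted is not given in the sources used here. All 10 astrocyte markers, Gfap and Aqp4 among them, were present in every library.

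Levels of different genes were compared per transcript length, in the deposited FPKM values. Chpf, the chondroitin polymerizing factor, was the most abundant enzyme mRNA of the 10 in every group, with group means of 55.3 to 57.9 FPKM. In WT control Chst11 (17.6 and 20.9 FPKM) and Chsy1 (17.9 and 18.2 FPKM) came next and overlapped each other. Below them stood Xylt2 with a mean of 15.1 FPKM, Csgalnact2 with 9.48, Csgalnact1 with 6.73, Chst15 with 3.60 and Xylt1 with 2.00. Chst3 and Chsy3 were the lowest, at 0.499 and 0.320 FPKM. After TGF-β the order changed in both genotypes. Chst11 (means of 49.3 FPKM in WT and 50.5 in RGC-32 KO) then stood clearly apart from Chsy1 (34.7 and 33.3), Xylt1 moved above Chst15, and Chsy3 moved above Chst3. None of these neighbours overlapped in the WT TGF-β group, whereas Chst3 and Chsy3 overlapped in RGC-32 KO control.

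**Figure D1:**
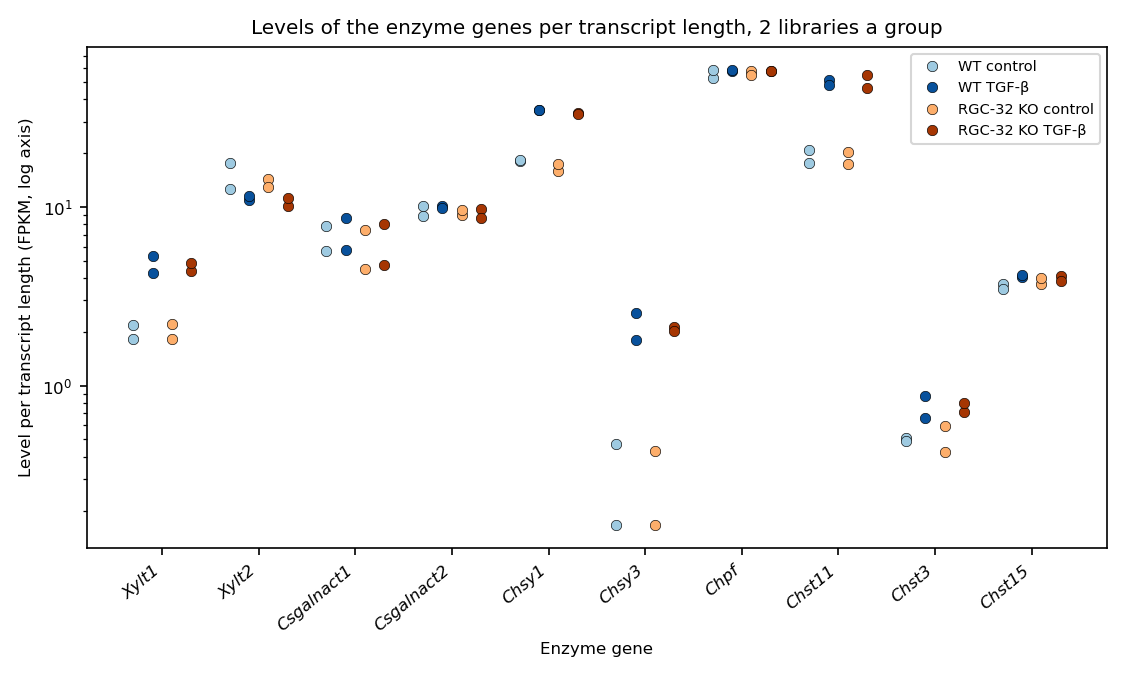
Level of each enzyme gene per transcript length in FPKM on a log axis, with both libraries of each of the 4 groups as points. Chst11, Chsy1, Xylt1 and Chsy3 lie higher in the dark TGF-β points than in the pale control points in both genotypes, while Chpf stays between 52.4 and 58.4 FPKM in all libraries.

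TGF-β raised 5 of the 10 enzyme genes in WT astrocytes: Chsy3, Xylt1, Chst11, Chsy1 and Chst3. It raised 4 of the 10 in RGC-32 KO astrocytes, namely the same genes without Chst3, and none of the 10 fell past the threshold in either genotype. Among all genes tested, 7.72% were higher and 5.65% lower past the threshold in WT, and 6.61% were higher and 4.93% lower in RGC-32 KO. With the adjusted p alone and no limit on the fold, 7 of the 10 enzymes against 32.9% of all genes passed in WT, and 4 of the 10 against 28.4% of all genes passed in RGC-32 KO. The median log2 fold change of the 10 enzymes was 0.59 for WT and 0.37 for RGC-32 KO cells, beside -0.0048 and 0.0031 over all genes. Upper quartile scaling moved the split of all genes past the threshold in WT from 1043 higher among 1806 to 857 higher among 1912, and the count of enzymes stayed at 5.

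**Figure D2:**
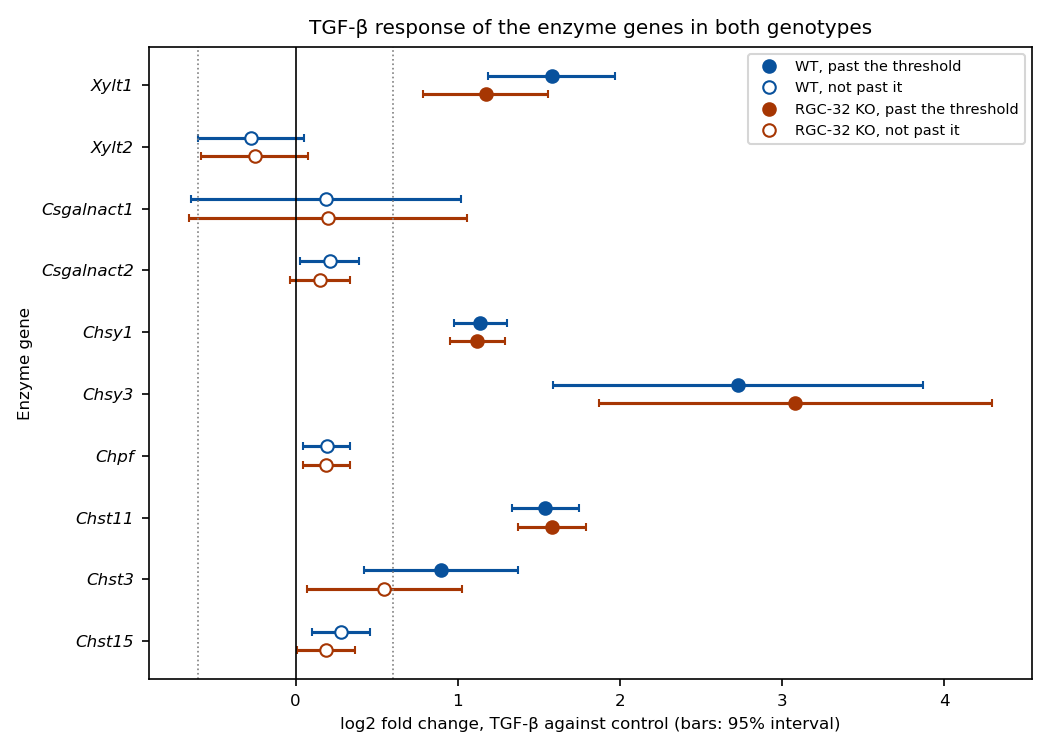
log2 fold change of each enzyme gene after TGF-β against control, blue for WT and brown for RGC-32 KO, with 95% intervals; filled points passed the threshold and dotted lines mark the fold limit of 0.6. Chsy3 has the largest estimate and the widest interval among the genes that rose, while Chsy1 and Chst11 have narrow intervals well to the right of the limit.

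Markers of another cell type moved with the same treatment. Of the 8 meningeal fibroblast markers, all were in the table and 7 were tested, and 3 of these (Col1a1, Col1a2 and Pdgfrb) were higher in WT after TGF-β while 1 (Dcn) was lower; 3 were higher and 0 lower in RGC-32 KO. Their summed level went from 4218 to 5424 CPM untreated to 8868 to 9987 CPM stimulated among WT cultures. Among knock-out cultures it went from 3458 to 3645 CPM to 6566 to 6714 CPM. Slc6a13 had 0 to 20 reads over the libraries. Col1a1 and Col1a2 were the largest parts of this sum, with means of 4217 and 3301 CPM in WT TGF-β. In WT and RGC-32 KO, Foxc1 had log2 values of -0.42 and -0.29, Lum -0.32 and -0.17, and Dcn -0.62 and -0.36. Col3a1 had 0.47 and 0.44, not past the threshold. The summed level of the 10 astrocyte markers was 4620 to 4847 CPM in WT control and 3585 to 3705 after TGF-β, and among knock-out cultures it was 5342 to 6005 and 4384 to 4716, with 2 of the 10 lower past the threshold in each genotype. The 10 microglial markers summed to between 1053 and 1387 CPM in all libraries, and the 7 oligodendrocyte lineage markers in the table to 352 to 354 CPM in WT control and 286 to 323 CPM after TGF-β, and to 366 to 376 and 313 to 366 CPM in knock-out cultures. The 5 neuronal markers in the table summed to between 280 and 338 CPM in control. After TGF-β they summed to between 355 and 397 CPM, with no overlap. They did not all move together. In WT and RGC-32 KO, Tubb3 was higher past the threshold (log2 0.98 and 0.95). Map2, the largest part of this sum, had 0.45 and 0.31, under the fold limit. Stmn2 had -0.16 and -0.0048, Syt1 0.11 and -0.32, and Gad1 0.09 and 0.19. Rbfox3, Snap25 and Slc17a7 were not analysed here. The 5 endothelial markers in the table summed to between 99.3 and 127 CPM in control and between 66.9 and 80.0 CPM after TGF-β. These went both ways: past the threshold in WT and RGC-32 KO, Cdh5 fell (log2 -1.09 and -0.85) and Flt1 rose (1.13 and 0.63). Kdr had -0.50 and -0.67, Tek -0.38 and -0.57, and Pecam1 0.18 and -0.39. The 4 ependymal markers summed to between 342 and 403 CPM in control and then between 221 and 272 CPM. The part of these marker levels in the enzyme results was not tested, and in RNA from whole cultures fewer cells of a type and less RNA per cell cannot be told apart.

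The linker step showed a rise of Xylt1 and no such rise of Xylt2. Both encode xylosyltransferases, which place the first xylose on a serine of the core protein and so serve heparan sulfate as well. Xylt1 (chr7:117380979-117673580, plus strand, GRCm38) stood at 6.71 and 6.92 CPM in WT control and at 21.5 and 19.2 CPM after TGF-β. The knock-out cultures stood at 7.21 and 9.41 CPM in control and at 16.4 and 21.1 CPM after TGF-β. All 4 stimulated libraries therefore lay above all 4 control libraries. The rise was 2.99-fold in WT, a log2 value of 1.58 ± 0.17 (SE) with adjusted p = 0.000601, and 2.25-fold in RGC-32 KO, a log2 value of 1.17 ± 0.17 with adjusted p = 0.00231. On the log2 scale of FPKM plus a pseudocount of 1 the WT value was 0.95.

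Xylt2 (chr11:94663851-94677515, minus strand) was the more abundant of the pair. Its level was 72.7 and 51.8 CPM in untreated and 52.5 and 50.3 CPM in stimulated WT cultures, against 58.5 and 55.3 CPM and 45.4 and 50.1 CPM in the knock-out cultures. The WT groups overlapped, because the second WT control library lay within the range of the stimulated ones. The log2 fold change was -0.28 ± 0.14 (SE) for WT, with adjusted p = 0.172, and -0.25 ± 0.14 for RGC-32 KO, with adjusted p = 0.219, short of the threshold. The WT value was -0.0106 without the first WT control library and -0.52 without the second.

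Neither of the GalNAc transferases that begin the chondroitin chain passed the threshold. Csgalnact1 (chr8:68356781-68735146, minus strand) was at 23.9 and 38.1 CPM in untreated and 42.6 and 27.9 CPM in stimulated WT cultures, against 19.4 and 33.6 CPM and 38.8 and 22.2 CPM in the knock-out cultures. The gap within each pair of replicates was wider than any difference between group means: the second library was the higher one in both control groups and the lower one in both TGF-β groups. Its log2 fold change was 0.19 with a 95% interval of -0.65 to 1.02 in WT, and 0.20 with an interval of -0.66 to 1.06 in RGC-32 KO, and both intervals take in changes past the fold limit in either direction.

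Csgalnact2 (chr6:118107452-118139140, minus strand) varied little. Its 8 values ran from 36.1 to 45.1 CPM, and the log2 fold change was 0.21 ± 0.08 (SE) for WT, with adjusted p = 0.0791, and 0.15 ± 0.08 for RGC-32 KO, with adjusted p = 0.201. The upper ends of the 95% intervals, 0.39 and 0.34, lay below the fold limit of 0.6.

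Both chondroitin synthases rose and their partner Chpf did not pass the threshold. Chsy1 (chr7:66109515-66173798, plus strand), which adds alternating glucuronic acid and GalNAc to the growing chain, was at 79.4 and 79.7 CPM in WT control and at 164 and 186 CPM after TGF-β. For knock-out cultures the values were 72.3 and 73.2 CPM in control and 153 and 163 CPM after TGF-β. The control libraries differed by under 8 CPM in all, and every stimulated library was far above them. The rise was 2.20-fold in WT, a log2 value of 1.14 ± 0.07 (SE) with adjusted p = 0.000114, and 2.18-fold in RGC-32 KO, a log2 value of 1.12 ± 0.07 with adjusted p = 0.000137.

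Chsy3, the second synthase (chr18:59175401-59535999, plus strand), had few reads without TGF-β. Untreated cultures gave 9 and 38 reads (WT) or 7 and 28 reads (RGC-32 KO), and stimulated cultures gave 194 and 133 reads (WT) or 129 and 145 reads (RGC-32 KO). The stimulated libraries corresponded to 8.50 to 10.7 CPM and did not overlap the controls. The rise was 6.62-fold in WT, a log2 value of 2.73 ± 0.49 (SE) with adjusted p = 0.00503, and 8.46-fold in RGC-32 KO, a log2 value of 3.08 ± 0.52 with adjusted p = 0.00470. It passed the threshold without any single library, but its size rested on the controls: in WT the log2 value was 2.08 without the first control library and 4.02 without the second, and in RGC-32 KO it was 2.44 and 4.33. On the log2 scale of FPKM plus a pseudocount of 1, which understates low genes, the values were 1.27 (WT) and 1.25 (RGC-32 KO).

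Chpf (chr1:75474569-75479307, minus strand) has little synthase activity of its own and works together with the synthases. It was at 176 and 188 CPM in untreated and 203 and 212 CPM in stimulated WT cultures, against 185 and 172 CPM and 202 and 205 CPM in the knock-out cultures. The control and stimulated libraries did not overlap, yet the log2 fold change was 0.19 (SE 0.06) in both genotypes, under the fold limit (adjusted p = 0.0481 in WT and 0.0558 in RGC-32 KO).

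Among the sulfotransferases Chst11 rose in both genotypes, Chst3 passed the threshold in WT, and Chst15 passed it in neither. Chst11 (chr10:82985498-83195900, plus strand) sulfates GalNAc at carbon 4, the most common sulfation of these chains. It was at 104 and 122 CPM in WT control and at 322 and 337 CPM after TGF-β. In knock-out cultures it was at 102 and 114 CPM in control and at 331 and 315 CPM after TGF-β. No control library came near a stimulated one. The rise was 2.91-fold in WT, a log2 value of 1.54 ± 0.09 (SE) with adjusted p = 8.94e-05, and 2.99-fold in RGC-32 KO, a log2 value of 1.58 ± 0.09 with adjusted p = 9.32e-05.

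Chst3 (chr10:60181532-60219260, minus strand) sulfates GalNAc at carbon 6 and was expressed at a low level. It had 3.61 and 2.92 CPM in untreated and 6.30 and 5.82 CPM in stimulated WT cultures, against 3.13 and 4.08 CPM and 4.69 and 5.88 CPM in the knock-out cultures. The stimulated libraries lay above the controls in both genotypes. The rise in WT was 1.86-fold, a log2 value of 0.89 ± 0.21 (SE) with adjusted p = 0.0135, and the value in RGC-32 KO was 1.46-fold, a log2 value of 0.55 ± 0.21 with adjusted p = 0.0847. With under 120 reads in every library this was the least secure of the calls: the adjusted p in WT was 0.0825 without the second WT control library, 0.0651 without the first WT TGF-β library and 0.0547 without the second. On the FPKM scale the WT log2 value was 0.23 with a pseudocount of 1 (limma adjusted p = 0.0533) and 0.52 with a pseudocount of 0.1 (limma adjusted p = 0.0597), both under the fold limit.

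Chst15 (chr7:132235780-132317228, minus strand) adds a further sulfate to GalNAc that Chst11 or a related enzyme has already sulfated, which gives the doubly sulfated unit called chondroitin sulfate E. Its values were 20.4 and 18.9 CPM in untreated and 23.2 and 24.5 CPM in stimulated WT cultures, against 21.4 and 21.5 CPM and 24.1 and 24.7 CPM in the knock-out cultures. The groups did not overlap within a genotype, but the log2 fold changes of 0.28 ± 0.08 (SE) for WT, with adjusted p = 0.0279, and 0.19 ± 0.08 for RGC-32 KO, with adjusted p = 0.112, were below the fold limit. The libraries do not keep strand, and 1206 of the 6754 annotated exon bases of Chst15 are shared with Gm10584 on the other strand, so reads there cannot be assigned to either gene. Chsy1 shares 148 of its 4176 exon bases with Gm26827 in the same way, and the other 8 enzyme genes share none.

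**Figure D3:**
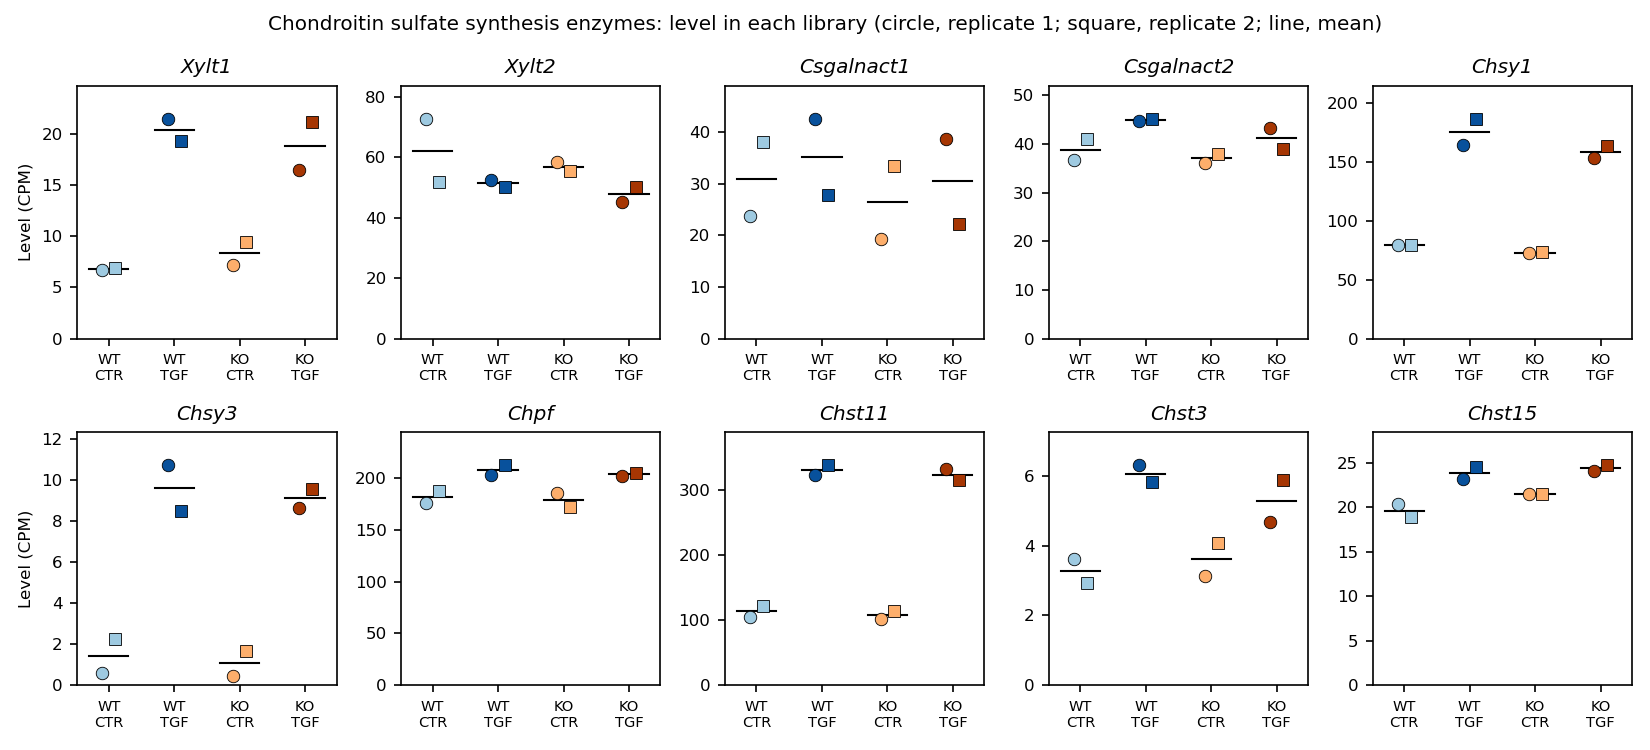
Level of each enzyme gene in CPM in each of the 8 libraries, in the order of the synthesis steps, with circles for replicate 1, squares for replicate 2 and a line at the group mean; every axis starts at 0. Xylt1, Chsy1, Chsy3 and Chst11 show stimulated libraries far above the controls in both genotypes, and Csgalnact1 shows replicates farther apart than the group means.

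The start regions of Chst11 and Chsy1, which rose in both genotypes with the smallest errors, and of Xylt2, which did not, are shown to allow their sequences to be set beside these values. Each is the window from 250 bases before to 50 bases after the RefSeq transcript start on GRCm38.p6, read 5′ to 3′ on the strand of the gene. Capitals mark matches, on either strand, to CAGAC, which is the core of the element that SMAD proteins bind, to GGGCGG, the GC box bound by Sp family factors, or to TGANTCA, the AP-1 element.
Chst11, chr10:82985247-82985546, plus strand: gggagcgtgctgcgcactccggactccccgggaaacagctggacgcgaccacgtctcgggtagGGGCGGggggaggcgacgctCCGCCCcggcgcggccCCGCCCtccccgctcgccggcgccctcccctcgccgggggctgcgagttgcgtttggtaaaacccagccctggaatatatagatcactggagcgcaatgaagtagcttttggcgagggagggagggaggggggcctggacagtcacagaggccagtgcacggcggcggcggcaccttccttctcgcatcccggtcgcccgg
Chsy1, chr7:66109242-66109541, plus strand: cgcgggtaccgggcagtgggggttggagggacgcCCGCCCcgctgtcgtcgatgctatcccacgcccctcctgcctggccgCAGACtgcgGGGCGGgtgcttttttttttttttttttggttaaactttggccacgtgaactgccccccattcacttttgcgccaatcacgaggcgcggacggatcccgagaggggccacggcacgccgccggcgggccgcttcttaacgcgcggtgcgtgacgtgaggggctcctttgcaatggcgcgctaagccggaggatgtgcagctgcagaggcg
Xylt2, chr11:94677444-94677743, minus strand: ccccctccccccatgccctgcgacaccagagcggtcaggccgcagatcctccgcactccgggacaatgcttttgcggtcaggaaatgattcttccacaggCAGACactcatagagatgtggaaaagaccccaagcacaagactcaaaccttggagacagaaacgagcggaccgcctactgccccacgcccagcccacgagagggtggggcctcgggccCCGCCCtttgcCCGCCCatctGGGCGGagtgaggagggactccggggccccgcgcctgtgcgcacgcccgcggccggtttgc
The window of Chst11 held 3 matches to GGGCGG and none to CAGAC, that of Chsy1 held 2 and 1, and that of Xylt2 held 3 and 1, with no TGANTCA in any of the windows shown. The matches did not overlap each other. RefSeq windows were at hand for 7 of the 10 enzymes, 9 windows in all: CAGAC was in 7 of these 9, GGGCGG in 8 and TGANTCA in 1, which was a window of Csgalnact2. The 2 windows of Chst15 share 98 bases and the CAGAC in them, so by gene CAGAC was in 6 of the 7 and GGGCGG in 7. Of all 32851 windows, 49.6% held CAGAC, 35.7% held GGGCGG and 7.81% held TGANTCA. A match describes the letters of a window only.

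The balance of the mRNAs shifted after TGF-β within the xylosyltransferase and synthase pairs but not within the GalNAc transferase pair. In the first pair Xylt1 rose, while Xylt2 had means of 15.1 and 11.2 FPKM in WT control and TGF-β, and of 13.7 and 10.7 FPKM in RGC-32 KO. Xylt1 made up 9.34% and 14.8% of the FPKM of the xylosyltransferase pair in WT control and 32.6% and 27.3% after TGF-β. In knock-out cultures the share was 11.3% and 14.5% in control and 30.1% and 30.3% after TGF-β. Every stimulated library thus had a larger Xylt1 share than every control library. Chsy3 made up 0.915% to 2.53% of the synthase pair in the 4 control libraries and 4.90% to 6.87% in the stimulated ones, so Chsy1 remained by far the larger part. Chst15 corresponded to 16.7% to 21.2% of the Chst11 level in controls and to 7.49% to 8.66% after TGF-β, and Chsy1 corresponded to 27.6% to 34.2% and then 57.4% to 60.3% of the Chpf level. The share of Csgalnact1 in its pair ran from 33.3% to 46.0% and overlapped in all groups. These shares are mRNA levels per length and say nothing of enzyme activity.

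**Figure D4:**
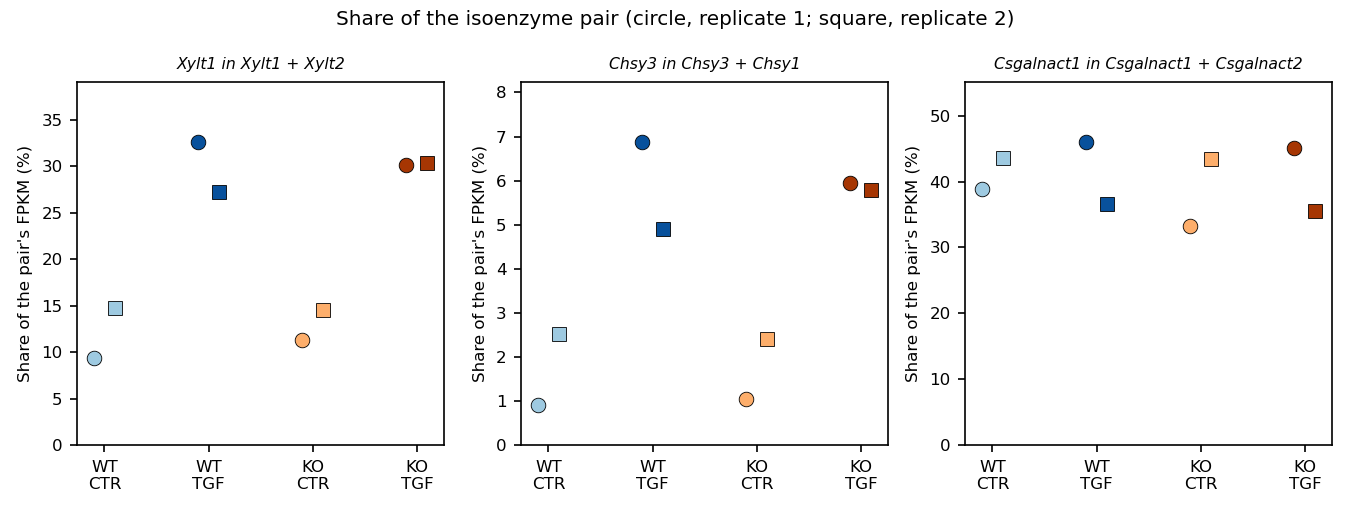
Share of one member in the summed FPKM of an isoenzyme pair, in percent, for each library of the 4 groups; circles are replicate 1 and squares replicate 2. The shares of Xylt1 and Chsy3 are higher in all TGF-β libraries than in all control libraries, whereas the share of Csgalnact1 overlaps between groups.

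The comparison of genotypes asked whether the enzymes differ without RGC-32, at rest or after TGF-β. None of the 10 passed the threshold in RGC-32 KO against WT in control cells, where 0.037% of all genes did, nor after TGF-β, where 0.0444% did. Log2 differences were above 0 for 3 of the 10 in control cells and for 1 after TGF-β. Over all 13509 genes tested, 6425 and 6767 were above 0. The medians of the 10 were small, -0.07 and -0.11, and their shared direction was not tested. At an unadjusted p under 0.05 the edgeR test gave 0 of the 10 in both comparisons, beside 6.84% and 11.7% of all genes, and DESeq2 and limma-voom gave 0 of the 10 as well. Some other settings gave 1 or 2 at that unadjusted level, none of which passed after adjustment. Without the second WT control library it was Xylt2 in control cells (log2 -0.36, unadjusted p = 0.00441), without the first RGC-32 KO control library Xylt1 in control cells (0.47, unadjusted p = 0.0478), and without the first WT TGF-β library Chsy1 after TGF-β (-0.25, unadjusted p = 0.0121). Csgalnact1 was lower in each RGC-32 KO library than in the WT library of the same number and treatment, in 4 of 4 such pairs. With a replicate block crossed between treatments, a setting chosen after seeing the data, its log2 differences were -0.23 in control cells (edgeR adjusted p = 0.335) and -0.22 after TGF-β (edgeR adjusted p = 0.192), and Chsy1 also had an unadjusted p of 0.0418 after TGF-β. In the edgeR test as reported, the nearest to that level was Chsy1 after TGF-β, at 153 and 163 CPM in RGC-32 KO and 164 and 186 CPM in WT, a log2 difference of -0.15 with a 95% interval of -0.31 to 0.01 (adjusted p = 0.467). For Chst11 the interval after TGF-β was -0.23 to 0.17, and for Xylt1 it was -0.47 to 0.24.

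The response itself was compared between genotypes with an interaction term, the response in RGC-32 KO minus that in WT. None of the 10 enzymes passed the threshold or an unadjusted p under 0.05, where 0% and 2.82% of all genes did. The largest estimate was that of Xylt1, -0.41 with a 95% interval of -0.96 to 0.15, and it was -0.0461 on the FPKM scale with a pseudocount of 1. Its unadjusted p was 0.0438 without the first RGC-32 KO control library and 0.0333 without the second RGC-32 KO TGF-β library. Chst3, whose rise passed the threshold in WT alone, had an interaction of -0.35 with an interval of -1.02 to 0.33, so a difference in its response between the genotypes was not shown. For Chsy1 and Chst11 the intervals were -0.25 to 0.21 and -0.25 to 0.33. For Chsy3 the interval of -1.44 to 2.14 was too wide to compare the genotypes. For the 5 enzymes past the threshold in neither genotype, the interaction estimates lay between -0.09 and 0.02, and their 95% intervals reached as far as -1.19 and 1.21, those of Csgalnact1, whose response could not be compared between the genotypes at this precision.

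The rest of the pathway was described with lists of related genes. Beside their counts stand the shares of all genes past the threshold. These were 7.72% higher and 5.65% lower in WT, and 6.61% and 4.93% in RGC-32 KO. A count of 1 in a list of 10 or 12 is close to those shares. Of 12 other chain and linker enzymes tested, 1 was higher in WT and 2 in RGC-32 KO and none was lower, with a median log2 fold change of 0.26 and 0.36. Ust, which sulfates the uronic acid of the chain, rose from 25.9 and 25.3 CPM to 55.0 and 64.0 CPM in WT (log2 1.21, SE 0.12, adjusted p = 0.000434), and its log2 value in RGC-32 KO was 1.08 (adjusted p = 0.000900). Dsel, an epimerase-like gene of dermatan sulfate formation, had log2 values of 0.52 in WT, under the fold limit, and of 0.79 ± 0.09 (SE) in RGC-32 KO, with adjusted p = 0.000824, and the difference between the genotypes did not pass the test (0.26, interval -0.02 to 0.55).

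Of 10 genes that supply sugar donors and sulfate, 3 were higher in WT and 2 in RGC-32 KO, and none was lower. Papss2 makes PAPS, the sulfate donor of every sulfotransferase in this pathway, and had 68.0 and 41.9 CPM in WT control against 174 and 240 CPM after TGF-β. In knock-out cultures it had 63.2 and 36.9 CPM in control and 188 and 284 CPM after TGF-β. The rise was 3.77-fold in WT, a log2 value of 1.92 ± 0.33 (SE) with adjusted p = 0.00417, and 4.73-fold in RGC-32 KO, a log2 value of 2.24 ± 0.33 with adjusted p = 0.00276. Slc26a2, a sulfate transporter of the plasma membrane, passed the threshold in WT (log2 0.78, adjusted p = 0.00283) and had a log2 value of 0.48 in RGC-32 KO.

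Among genes of chain breakdown a single one passed the threshold. Of 10 tested, Hyal1, a hyaluronidase, rose in both genotypes (log2 0.77 and 0.68), none fell past the threshold, and the medians were -0.07 for WT and -0.03 for RGC-32 KO. Heparan sulfate, which shares the linker with chondroitin sulfate, had 3 of 17 enzymes higher and 1 lower in each genotype, with medians of 0.31 and 0.26. Ext1, a polymerase of that chain, rose from 140 and 148 CPM to 349 and 387 CPM in WT (log2 1.36, SE 0.08, adjusted p = 8.94e-05). Glce rose by 0.79 and 0.69 and Hs6st1 by 0.68 and 0.79 in WT and RGC-32 KO. Extl1, a GlcNAc transferase of the same family as Ext1, fell in both, with log2 values of -1.13 and -1.38.

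The core proteins that carry the chains went both ways. Of 10 tested, 3 were higher and 2 lower in WT, and 3 were higher and 1 lower in RGC-32 KO. Cspg4, which encodes NG2, had 38.5 and 25.4 CPM in WT control and 257 and 302 CPM in WT TGF-β, a log2 fold change of 3.13 (SE 0.25), and 2.69 in RGC-32 KO. Vcan, which encodes versican, rose by 1.95 and 1.67 and Bgn, which encodes biglycan, by 1.29 and 1.46 on the log2 scale. Bcan, which encodes brevican, fell with log2 values of -0.76 and -0.62. Dcn, which encodes decorin and is also in the fibroblast marker list, had -0.62 in WT and -0.36 in RGC-32 KO, the latter under the fold limit. The interaction of Dcn was 0.26 with a 95% interval of -0.05 to 0.57, so a difference in its response was not shown. Between genotypes after TGF-β, none of the 10 core proteins passed the threshold, and 6 had log2 differences above 0. Vcan then had means of 144 CPM in RGC-32 KO and 226 CPM in WT. That log2 difference was -0.65 (95% interval -0.93 to -0.37, edgeR adjusted p = 0.129). The study, using DESeq2 with the same limits, places Vcan among the genes significantly higher in WT after TGF-β. In its real-time PCR the WT level was also higher, but that difference did not reach significance.

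**Figure D5:**
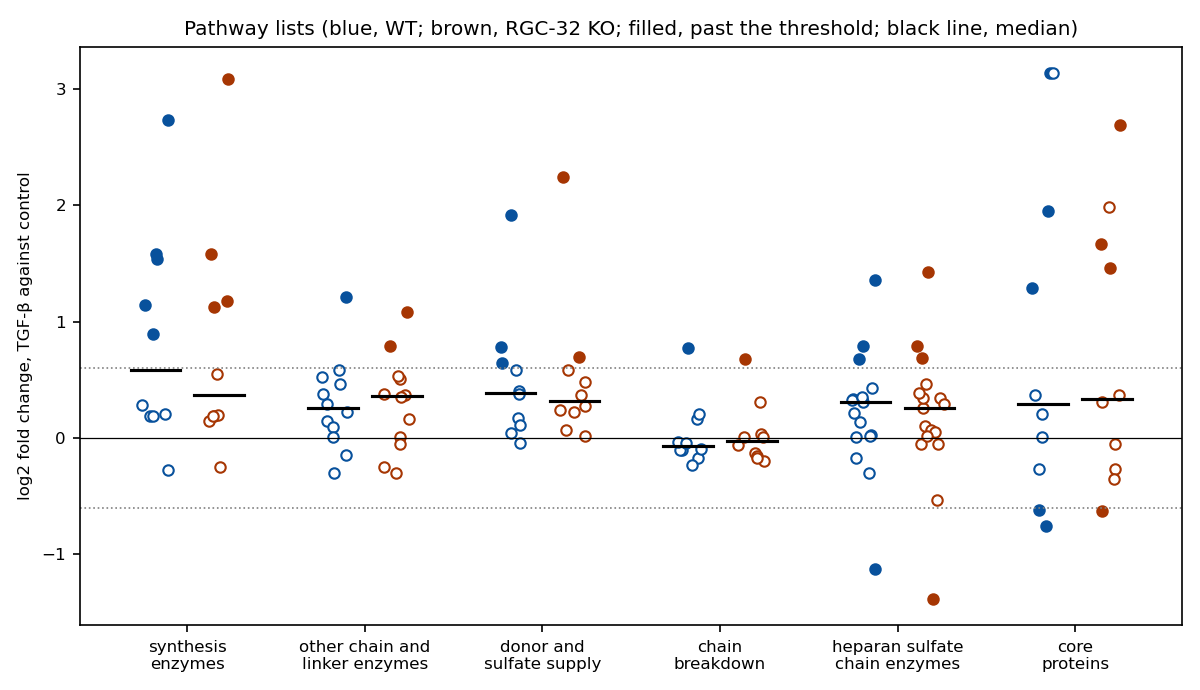
log2 fold change after TGF-β against control of each tested gene in the 10 synthesis enzymes and the related lists, blue for WT and brown for RGC-32 KO, filled where past the threshold, with a black line at the list's median and dotted lines at the fold limit of 0.6. The medians of the synthesis enzymes, 0.59 and 0.37, and of every related list but the breakdown genes lie above 0. Those of the breakdown genes lie near 0.

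Over the 8 libraries, Tnc (Pearson r = 0.995) and Aldh1a3 (0.995) were among the 3 genes whose log2 CPM most closely followed that of Chsy3, the enzyme with the largest rise in WT. For Xylt2, the enzyme with the lowest log2 fold change in WT, the 3 closest were Lcp1 (0.993), Ikbke (0.986) and Mx2 (0.982). These values describe 8 libraries that share the split by treatment, and they were picked as the highest among all genes tested. For Xylt2 the first WT control library stood apart, at 72.7 CPM against 45.4 to 58.5 CPM in the others. How far its correlations rest on that library was not tested.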

How the data were processed

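RNA from 8 astrocyte cultures was sequenced without strand. Per the labels and the study's methods, reads were aligned with STAR to mm10, which is GRCm38; Cufflinks and DESeq are also named, with versions not given in the sources used here. The authors deposited raw read counts per gene and FPKM per gene; their own comparison tables hold fold changes and p-values and were not used. The counts were tested in edgeR 4.0.16 (R 4.3.3) with filterByExpr, TMM scaling, a model of 4 group means over all 8 libraries and the quasi-likelihood F test; an interaction contrast compared responses. The study names limma and DESeq2 for its differential expression. Alternatives were DESeq2 1.42.0, limma 3.58.1 (voom, and log2 of the deposited FPKM plus a pseudocount of 1 or 0.1), other scalings and filters, the replicate number as a block, and leaving out each library. The model was tested on simulated data with 200 changed genes.

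Replicates are stated to be biological, and the number of mice or litters behind each is not given in the sources used here. Libraries of 1 group differed by more than sampling noise, as their chi-square statistics were 6.26 to 10.4 times the degrees of freedom. The enzymes, the related lists and the cell markers were chosen with earlier results of these data known. Named genes are the 10 enzymes, from each related list the genes past the threshold in either genotype (at most 6, by the size of the change in WT), the 3 genes most correlated with the enzyme that rose and that fell the most, and the targeted gene. Papss1 was named beside Papss2 outside this rule. Chst13 and 2 listed heparan sulfate genes were not analysed here. Of the genes this rule names, 2 are not reported here. Sequences came from RefSeq, and gene positions from GENCODE on GRCm38.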

Additional observations from a re-analysis of the deposited data

How the results depend on the processing

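The count of enzymes past the threshold was 4 to 7 in WT and 3 to 4 in knock-out cells over 20 other settings, with 0 lower and 0 in either genotype comparison and the interaction; the 7 came without the fold limit, and Chsy3 was not tested where 10 counts in every library were required. Of 378 recomputed log2 values for the TGF-β responses, 367 kept their direction and side of the threshold; the calls lost were those of Chst3 in WT given in the report. With the replicate block, 5 and 4 enzymes passed, and Chsy3 had log2 values of 2.81 and 3.12. No source says that the replicate numbers pair the samples. Deviations of same-numbered libraries correlated at -0.34 (WT) and -0.35 (RGC-32 KO) between control and TGF-β, at -0.48 and -0.51 across both genotype and treatment, and at 0.49 (control) and 0.25 (TGF-β) between WT and RGC-32 KO. A crossed pairing, chosen after seeing the data, also gave 5 and 4 enzymes and 0 between genotypes, where it called 10 of all genes in control cells and 36 after TGF-β, beside 2 and 3 with the uncrossed block.

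Signs that turned belonged to values not past the threshold, and the cause was not tested. With 1 library left out, the response of Csgalnact1 spanned -0.15 to 0.55 (WT) and -0.26 to 0.65 (RGC-32 KO). RGC-32 KO minus WT in control cells ran from -1.68 to 0.87 for Chsy3, -0.06 to 0.32 for Chst3 and -0.175 to 0.0481 for Chst11. After TGF-β it ran from -0.321 to 0.0653 for Xylt1, -0.223 to 0.0889 for Chsy3 and -0.0726 to 0.0163 for Chst11. The interaction ran from -0.124 to 0.0808 for Chsy1, -0.96 to 1.60 for Chsy3 and -0.079 to 0.146 for Chst11. On the FPKM scale with pseudocounts of 1 and 0.1, Csgalnact2 in RGC-32 KO had -0.0188 and -0.0208, Chst11 between genotypes after TGF-β had 0.0279 and 0.0283, and the interaction of Chsy1 had 0.0587 and 0.0632; that of Chsy3 had -0.0129 with a pseudocount of 1.

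Over all genes in WT, 1806 passed as reported, 1101 on the FPKM scale with a pseudocount of 1 (518 higher) and 1200 without the second WT TGF-β library; the FPKM scale with a pseudocount of 0.1 moved the median of all genes to -0.12, and 731 of its 1888 calls were higher. Between genotypes, DESeq2 gave 13 genes in control cells and 34 after TGF-β, where 5 and 6 passed as reported. Chsy3 rests on few reads in controls, where its replicates also lie apart (9 and 38 reads in WT, 7 and 28 in RGC-32 KO). Chst3 has few reads in every library, and the 2 replicates of Csgalnact1 lie far apart in each group. What sets the width of their intervals was not tested.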
